A study of Mus musculus with 20 samples.

Results

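The insulin receptor gene Insr, the insulin-like growth factor receptor gene Igf1r, and the adaptor genes Irs1, Irs2 and Gab1 were examined in splenic natural killer (NK) cells of mice given the bracken fern toxin ptaquiloside, selenium, or both. Members were all array probes whose gene name in the scanner files is one of these 5 names, and each probe was kept separate. This gave 10 probes among the 41174 on the array: 2 for Insr, 4 for Igf1r, 3 for Irs1, 1 for Gab1 and 0 for Irs2. Of these, 7 probes of 3 genes had a spot called well above background by the scanner software on 5 or more arrays, and they entered the tests with 25046 probes in all, from 17481 named genes. The genes were picked on the values of these same arrays in selenium against control, in ptaquiloside plus selenium against selenium, and in the interaction of both agents, so member values in those 3 comparisons are given as a description with no test.

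The arrays held Cy3-labelled RNA of 20 male C57BL/6 mice, 5 in each of 4 groups. One group received ptaquiloside at 5.3 mg/kg together with selenium at 1.3 mg/kg, one received that dose of selenium, one received that dose of ptaquiloside, and controls received water, every day by gavage for 14 days. The NK cells were left unlabelled while other spleen cells were depleted magnetically, so cells that escaped depletion remain in the sample, and in such bulk RNA fewer cells of a type and less RNA per cell cannot be told apart. The chemical form of selenium and the age of the mice were not given in the sources used here.

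Insulin and the insulin-like growth factors bind receptor tyrosine kinases, Insr and Igf1r, which phosphorylate docking proteins of the Irs and Gab families. These docking proteins recruit PI3-kinase, which leads to Akt and mTOR, and the phosphatase Ptpn11 with Grb2, which lead to Ras and MAP kinase. Gab1 also serves the receptors Met, Egfr and Kit. In lymphocytes the pathway is known for supporting glucose uptake and growth after activation.

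Both Insr probes and the Gab1 probe lie on the minus strand of chromosome 8 in the file's mm9 coordinates, and parts of them are shown because the Insr probes gave different values. Probe A_52_P494514, for transcript NM_010568, covers chr8:3151667-3151726, and probe A_52_P6490, for the same transcript, covers chr8:3159473-3159532, so their starts are 7.81 kb apart. The Gab1 probe A_52_P417437, for NM_021356, covers chr8:83289342-83289401. Each is written 5′ to 3′ on the probe's strand, with the triplets TAA, TAG and TGA in capitals wherever they occur in any of the 3 frames of that strand.
Insr A_52_P494514, first 30 of 60 bases: cagattcTAGcTAATGAattctTGAcaaca
Insr A_52_P6490, all 60 bases: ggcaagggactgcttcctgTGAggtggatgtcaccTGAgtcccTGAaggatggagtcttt
Gab1 A_52_P417437, first 30 of 60 bases: aaggcacTGAtgtgcTAAtacagTGAttgg
Over its 60 bases, A_52_P494514 had 0 frames free of these triplets and a GC content of 35%, A_52_P6490 had 1 open frame and 55% GC, and the Gab1 probe had 0 open frames and 45% GC. Of all 41174 probes of this length on the array, 21.8% had 0 open frames. Whether a probe lies in an exon, an intron or an untranslated region was not assigned, since no annotation of mm9 was used here. Of both Insr probes, the one with 0 open frames is the one whose selenium and control arrays did not overlap.

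Levels are log2 processed signals minus the 75th percentile of the same array, so 0 is the 75th percentile and 1 unit is a doubling; levels of different probes are not compared. In 19 arrays the 75th percentile lay between 45.5 and 133 scanner units and 51.7 to 60.8% of spots were well above background. On the array of ptaquiloside mouse 4 these were 10.5 units and 36.3%, and its correlation with other arrays over the tested probes was 0.458 to 0.662, against 0.892 to 0.991 among the 19. The lowest 75th percentile among the 19, 45.5, was that of mouse 5 with both agents, and the next was 75.3 for selenium mouse 4. Each of the 5 slides held 1 mouse of every group, with each group always at the same place on the slide, so place and group cannot be told apart. Mice are numbered by slide in what follows.

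The more distinct of the Insr probes, A_52_P494514, was lower in all 5 selenium mice than in any control mouse, by 0.95 on the log2 scale. The means of mice given both agents and of mice given ptaquiloside alone lay between. In mice 1 to 5, its level was -4.00, -3.39, -3.59, -3.92 and -3.14 with both agents, and -4.19, -4.63, -3.72, -4.60 and -4.15 with selenium. It was -3.59, -3.58, -3.72, -3.17 and -4.05 with ptaquiloside, and -3.33, -3.46, -3.31, -3.27 and -3.15 in controls. The -3.17 of ptaquiloside mouse 4 came from a spot not well above background. That spot held 1.16 units with a scanner error of 1.16, on the array with a 75th percentile of 10.5. The selenium mice spread widely with mice 2 and 4 lowest, the controls kept within a narrow span, and both other groups overlapped each of these. The ptaquiloside group overlapped the controls only through mouse 4.

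Group means of this probe were -3.61 ± 0.36 with both agents, -4.26 ± 0.37 with selenium, -3.62 ± 0.31 with ptaquiloside and -3.30 ± 0.11 in controls (SD, n = 5 each). Selenium minus control was -0.95 with a standard error of 0.22. It ran from -1.33 to -0.41 over the 5 slides, and it must be negative on each, since the groups did not overlap. Ptaquiloside plus selenium minus selenium was 0.65 with a standard error of 0.22, positive on all 5 slides, from 0.13 to 1.23. On slide 5 its sign rests on the scaling. Before scaling, mouse 5 with both agents had 5.17 units and selenium mouse 5 had 7.24, on arrays with 75th percentiles of 45.5 and 128. The interaction is ptaquiloside plus selenium minus selenium, less the difference between ptaquiloside and control. It was 0.97 with a standard error of 0.31, and was positive on all 5 slides (0.45 to 1.91). Its highest value is that of slide 5, and slide 4 uses the dim spot of ptaquiloside mouse 4. Insr A_52_P494514 was the 1 of 7 member probes whose selenium and control arrays did not overlap in the lower direction, against 79 of 24862 probes measured on all arrays, which is 0.318%. Since the member was picked on this contrast, nothing is read from that share. For ptaquiloside plus selenium above selenium, 0 of 7 member probes had groups that did not overlap, against 28 of 24862 probes, or 0.113%.

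These Insr signals were small. Processed signals of A_52_P494514 ran from 5.17 to 11.3 scanner units with both agents, 3.10 to 8.68 with selenium, 1.16 to 10.9 with ptaquiloside and 10.6 to 12.0 in controls, while the scanner software's error for the same spots was 1.10 to 1.94 units. The spot was well above background on 4 of 5 arrays with both agents, 3 of 5 with selenium, 3 of 5 with ptaquiloside and 5 of 5 in controls. With normexp background correction and an offset of 50, which is above each of these processed signals, selenium minus control shrank to -0.16, ptaquiloside plus selenium minus selenium to 0.0029 and the interaction to 0.064. On 4 arrays (mouse 2 with both agents, selenium mouse 1 and control mice 1 and 5) that correction put the Insr spot at 44.0 to 117 units although spot minus local background was at most 20.2 units, and with an offset of 1 the 3 values were -0.65, 0.081 and 0.68.

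For the other Insr probe, A_52_P6490, selenium and control arrays overlapped. Its level was -5.08, -4.99, -3.64, -3.22 and -2.75 in mice 1 to 5 with both agents, and -3.86, -4.27, -4.43, -3.26 and -4.59 with selenium. It was -5.50, -3.79, -3.38, 0.19 and -3.28 with ptaquiloside, and -4.87, -3.99, -3.14, -3.46 and -2.83 in controls. All 4 groups overlapped, and the value of ptaquiloside mouse 4 stood far above the rest although its processed signal, 11.9 units, was within the range of the other arrays. Selenium minus control was -0.42 with a standard error of 0.74, negative on 3 of 5 slides, and ptaquiloside plus selenium minus selenium was 0.15. That standard error uses a spread shared by all 4 groups, ptaquiloside mouse 4 included. The SD was 2.07 with ptaquiloside, 1.05 with both agents, 0.53 with selenium and 0.80 in controls. Leaving out 1 control array moved selenium minus control to -0.73 without mouse 1 and to -0.22 without mouse 5. In the authors' deposited table, where group means stand in for control mouse 1 and ptaquiloside mouse 4 (left out of the fit) and values are not scaled by array, selenium minus control was -0.85 with a standard error of 0.41 for this probe, nearer to that of A_52_P494514, which was -1.09 there, and the interaction was 0.79. With signals scaled by array, the interaction was -0.36 with all arrays and 0.48 without ptaquiloside mouse 4, so its sign rests on that array. Over the 20 arrays the 2 Insr probes had a Pearson r of 0.30 and a Spearman rho of 0.37 with each other, and r was 0.14 over the 19 arrays without ptaquiloside mouse 4. The plot of Insr and Gab1 levels shows each array.

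**Figure D1:**
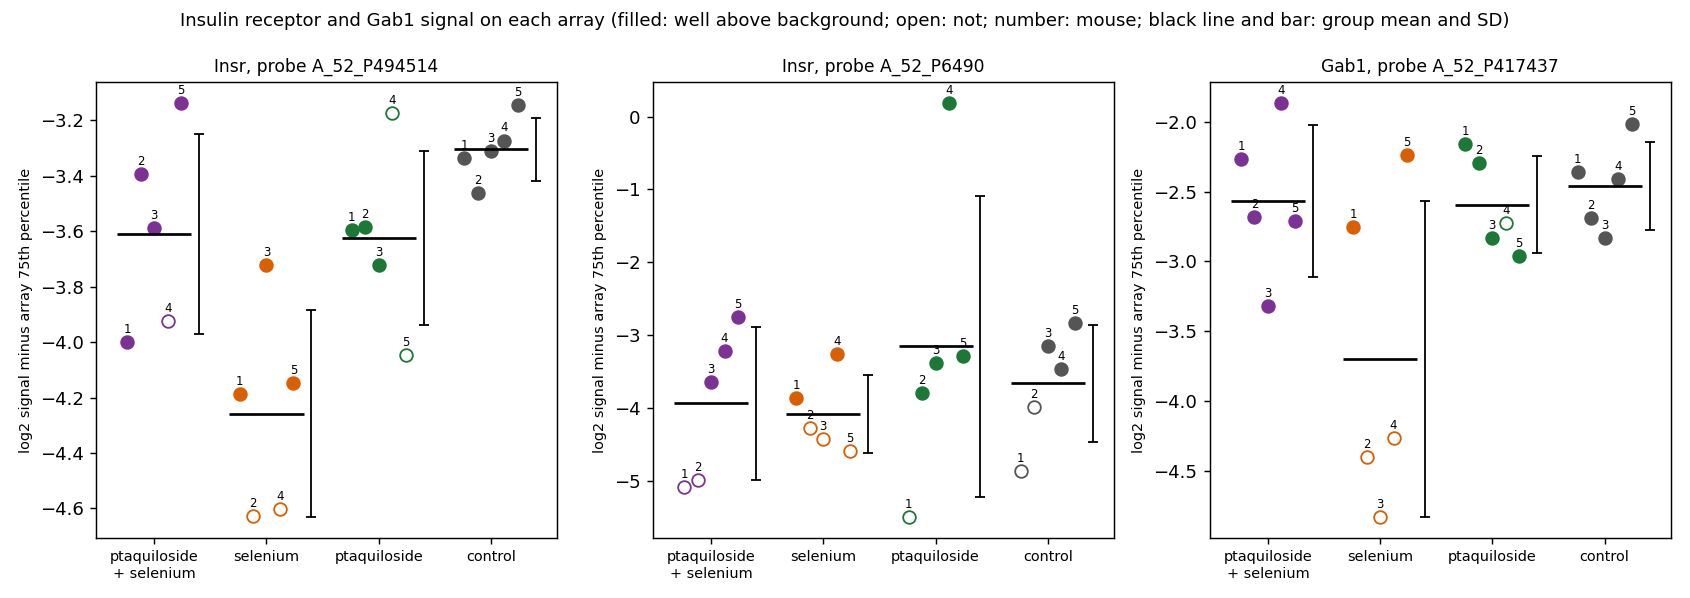
Log2 signal minus the array's 75th percentile for both Insr probes and the Gab1 probe on each of 20 arrays, by group, with filled circles for spots well above background, open circles for the others, the mouse number above each point, and the group mean and SD in black. All 5 selenium mice lie below all 5 controls for Insr A_52_P494514, while for Gab1 selenium mice 1 and 5 lie at the level of the other groups and mice 2, 3 and 4 lie below them.

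Igf1r, the receptor for insulin-like growth factors and the closest relative of Insr among the members, differed little between groups. Its probes lie on the plus strand of chromosome 7, which is the strand of the gene in RefSeq. Probe A_52_P668647, made from clone sequence AK044980, covers chr7:75332515-75332574, and 39.0 kb further on follow A_51_P318365 at chr7:75371556-75371615, A_52_P634111 at chr7:75372500-75372559 and A_51_P474538 at chr7:75376998-75377057. Their spots were well above background on 16 to 20 of 20 arrays.

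For A_51_P474538 the level was 0.52, -0.18, -0.02, 0.22 and 1.57 in mice 1 to 5 with both agents, and 0.77, -0.30, 0.33, 0.15 and 0.32 with selenium. With ptaquiloside it was 0.82, 0.24, 0.37, -1.15 and 0.61, and in controls 0.54, 0.44, 0.80, 0.56 and 0.66. Selenium mouse 1 was above most controls while the other selenium mice were below them, so the groups overlapped. Group means were 0.42 ± 0.69 with both agents, 0.26 ± 0.39 with selenium, 0.18 ± 0.77 with ptaquiloside and 0.60 ± 0.14 in controls (SD, n = 5 each). Selenium minus control was -0.34 with a standard error of 0.35 for this probe. That standard error uses a spread shared by all 4 groups. It thus includes ptaquiloside mouse 4 at -1.15 and mouse 5 with both agents at 1.57, and is not the spread of selenium and control mice alone.

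The remaining Igf1r probes gave selenium minus control values of 0.04 (A_51_P318365), -0.30 (A_52_P668647) and 0.00 (A_52_P634111), with standard errors of 0.24 to 0.39. Ptaquiloside plus selenium minus selenium was 0.17, -0.17, 0.13 and -0.40 for A_51_P474538, A_51_P318365, A_52_P668647 and A_52_P634111, and the interaction was 0.59, -0.40, 0.48 and -0.63. The 4 probes of Igf1r thus differed in sign in ptaquiloside plus selenium minus selenium and in the interaction. In selenium minus control 2 probes were negative, and the others, at 0.04 and 0.00, had no clear sign. Each difference between groups was near or below its standard error, which shares the spread of all 4 groups, the array of ptaquiloside mouse 4 included. Over the 19 arrays without ptaquiloside mouse 4, the Igf1r probes had Pearson correlations of 0.42 to 0.66 with one another. Probe A_52_P634111 was not well above background with both agents in mice 2 and 4 and with ptaquiloside in mice 2 and 4.

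Irs1, a docking protein phosphorylated by both receptors, was well above background on 1 of 20 arrays for A_52_P171212 and on 0 of 20 for each of its other probes. Its probes cover chr1:82229692-82229751 (A_52_P175242), chr1:82231073-82231132 (A_52_P63931, made from sequence AY169784) and chr1:82233564-82233623 (A_52_P171212). Of the 3, 2 have the minus strand that RefSeq gives for Irs1 and A_52_P63931 is written on the opposite strand. The exception was A_52_P171212 in mouse 2 given both agents, at -2.92, where the other mice of that group lay between -6.96 and -5.50. Selenium mice lay between -6.65 and -5.75 over the 3 probes, and no fold change is given because no group was measured above background beyond that 1 array. Irs2, the second widely expressed member of the docking family, had no probe under that name and is not analysed here.

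**Figure D2:**
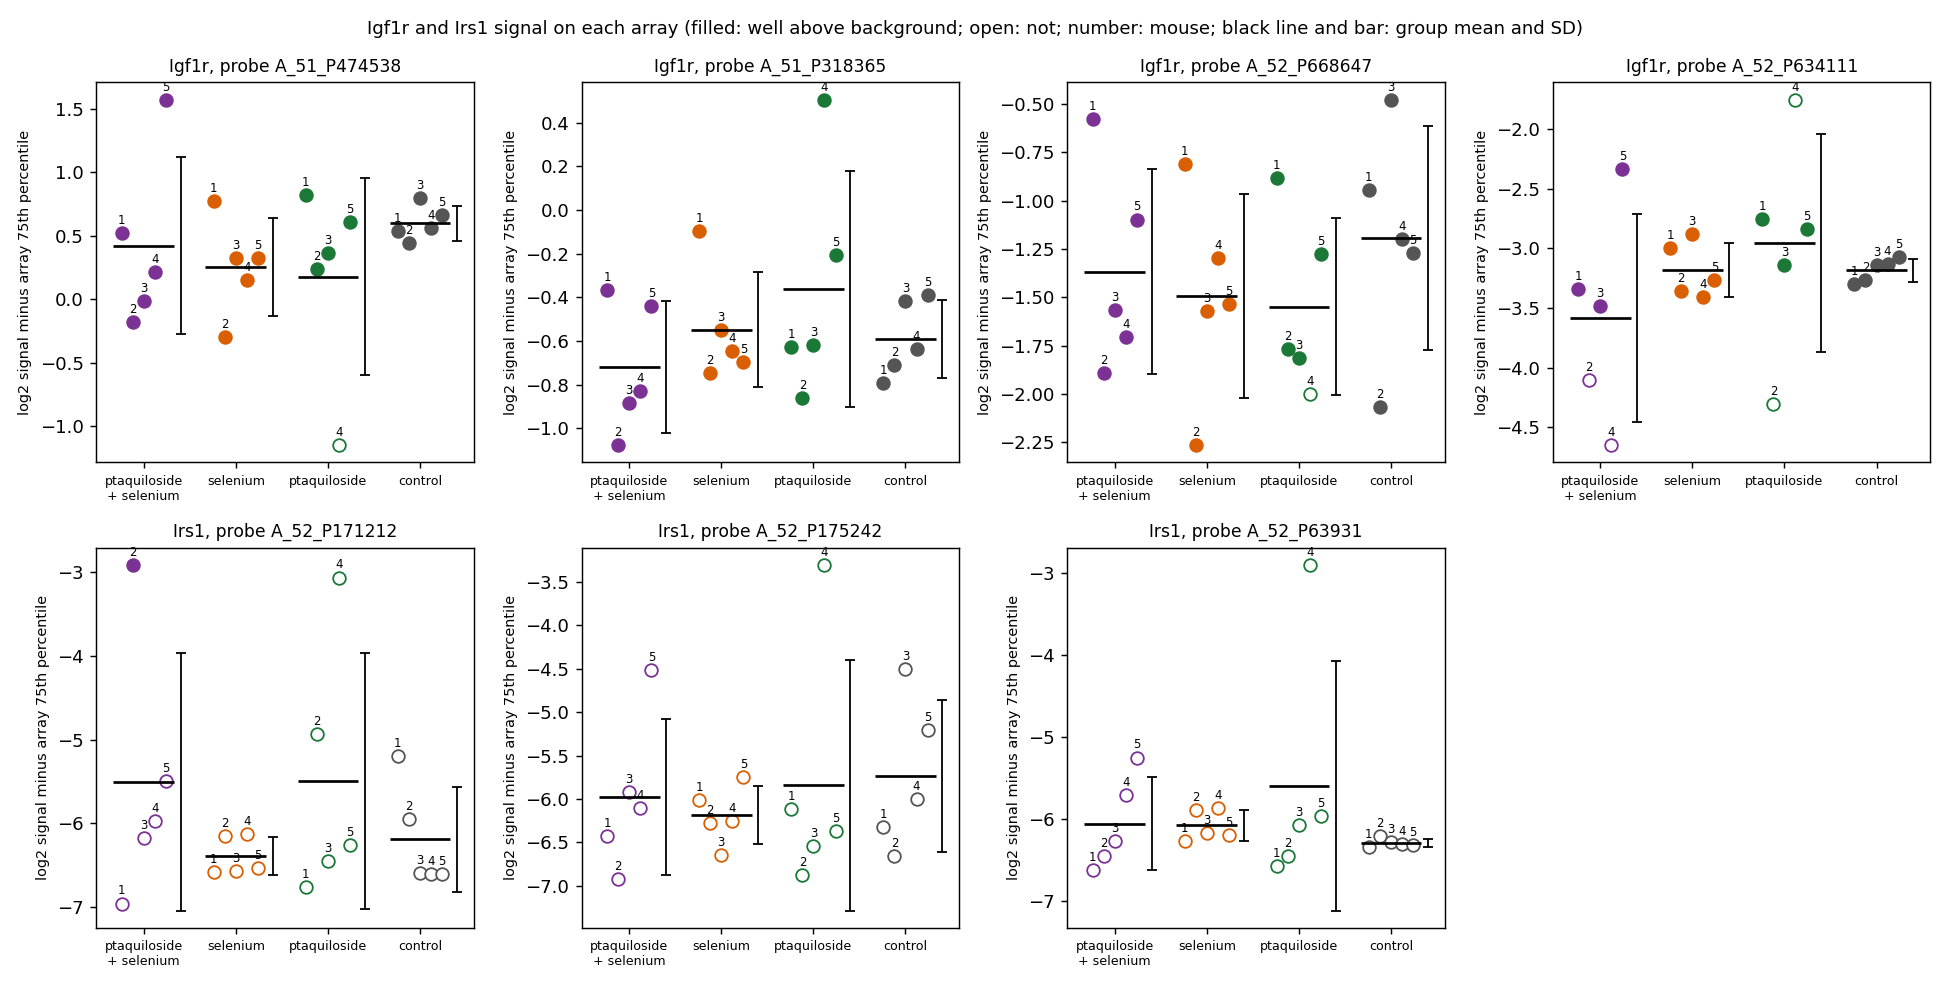
Log2 signal minus the array's 75th percentile for the 4 Igf1r probes and the 3 Irs1 probes on each array, by group, with the same symbols as in the plot of Insr and Gab1. Igf1r groups overlap for every probe, and 1 Irs1 spot in all is filled, that of mouse 2 given both agents on A_52_P171212.

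Gab1, the docking protein that links growth factor receptors to PI3-kinase and Ptpn11, had the largest member difference between selenium and control, but with a split among the selenium mice. Its level was -2.27, -2.68, -3.32, -1.87 and -2.71 in mice 1 to 5 with both agents, and -2.76, -4.40, -4.83, -4.26 and -2.24 with selenium. It was -2.16, -2.30, -2.83, -2.73 and -2.96 with ptaquiloside, and -2.36, -2.69, -2.83, -2.41 and -2.02 in controls. On this scaled level, selenium mice 2, 3 and 4 lay below every array of the other groups, and selenium mice 1 and 5 lay within the range of controls. The -2.73 of ptaquiloside mouse 4 came from a spot not well above background, with 1.59 units and a scanner error of 1.58. Before scaling, that spot was below those of selenium mice 2, 3 and 4, at 4.24, 4.03 and 3.92 units. For that array the order therefore rests on the scaling.

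The group means of Gab1 were -2.57 ± 0.54 with both agents, -3.70 ± 1.13 with selenium, -2.60 ± 0.35 with ptaquiloside and -2.46 ± 0.32 in controls (SD, n = 5 each). Selenium minus control was -1.24 with a standard error of 0.41, negative on all 5 slides from -2.00 to -0.23. No fold is given, since the spot was well above background in 2 of 5 selenium mice. Ptaquiloside plus selenium minus selenium was 1.13 with a standard error of 0.41, and was positive on 4 of 5 slides, with -0.47 on slide 5 and 2.40 on slide 4. The interaction was 1.26 with a standard error of 0.58 and was positive on all 5 slides (0.28 to 2.71). Its highest value, on slide 4, uses the spot of ptaquiloside mouse 4, which was not well above background. Leaving out 1 selenium array moved selenium minus control to -1.60 without mouse 5 and to -0.95 without mouse 3.

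The Gab1 spot was well above background on 5 of 5 arrays with both agents, 2 of 5 with selenium (mice 1 and 5), 4 of 5 with ptaquiloside and 5 of 5 in controls. Its processed signal was 6.94 to 31.5 units with both agents, 3.92 to 27.1 with selenium, 1.59 to 26.5 with ptaquiloside and 15.2 to 26.4 in controls. The 3 low selenium spots, at 3.92 to 4.24 units, had a scanner error of 1.33 to 1.72 units each. With normexp and an offset of 50, selenium minus control was -0.17, ptaquiloside plus selenium minus selenium 0.11 and the interaction 0.076, and with an offset of 1 they were -0.84, 0.59 and 0.83. A further probe, A_52_P271735 at chr8:83402199-83402258, is named by its clone AK050935 and described as a Gab1 clone. It is no member by gene name, and it was not well above background on any of the 20 arrays.

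**Figure D3:**
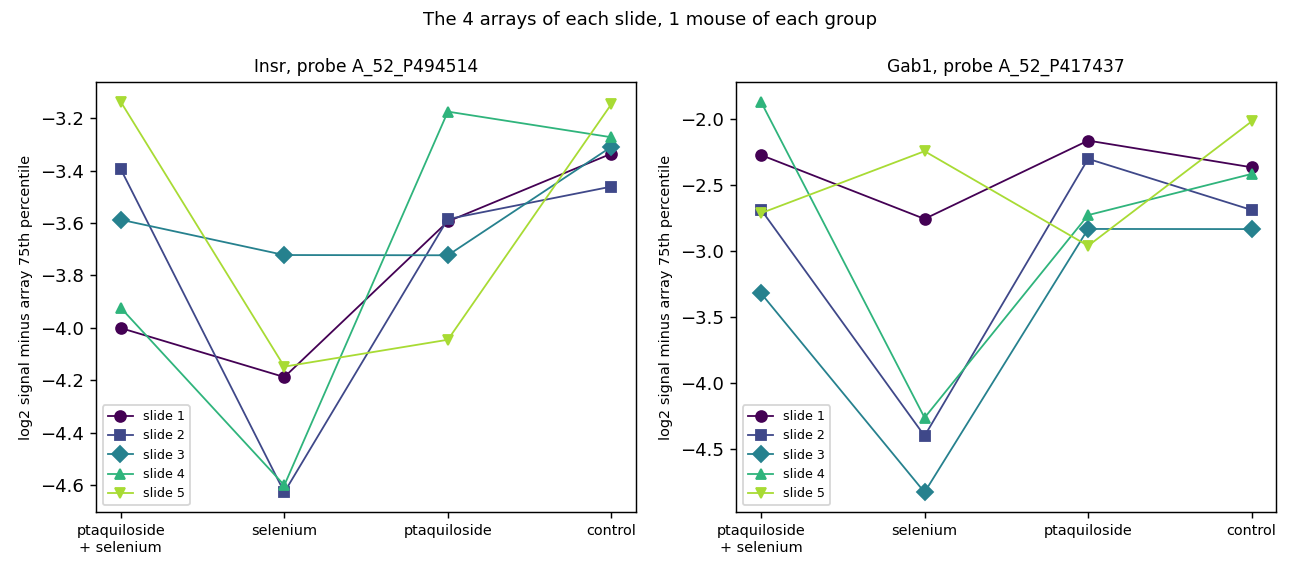
Log2 signal minus the array's 75th percentile for Insr A_52_P494514 and Gab1 on the 4 arrays of each slide, 1 line per slide. Selenium lies below control on all 5 slides for both probes, and for Gab1 the mouse given both agents lies above the selenium mouse on all slides but slide 5.

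The 3 comparisons that were not named in picking the genes gave no called member. Each is a sum or difference of comparisons that did serve to pick them, so its member values are not independent of the picking. In limma over 25046 probes with Benjamini-Hochberg adjustment, 0 probes (0%) passed an adjusted p of 0.05 in ptaquiloside minus control, in ptaquiloside plus selenium minus ptaquiloside, or in ptaquiloside plus selenium minus control. At an unadjusted p under 0.05, 420, 655 and 57 probes passed in these comparisons, each less than a share of 0.05 of all probes. This fit has no term for slide and keeps the array of ptaquiloside mouse 4. High adjusted p-values from it do not show an absence of change. For Insr A_52_P494514, ptaquiloside minus control was -0.32 with a standard error of 0.22 (limma adjusted p = 0.800), and 4 of 5 slides were negative. The exception, slide 4 at 0.10, holds ptaquiloside mouse 4, and the difference was -0.43 without that mouse. Ptaquiloside plus selenium minus ptaquiloside was 0.02 for this probe (limma adjusted p = 0.983), and ptaquiloside plus selenium minus control was -0.30 (limma adjusted p = 1.00).

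For Gab1 the same 3 differences were -0.13, 0.02 and -0.11, each with a standard error of 0.41, and limma adjusted p-values of 0.904, 0.985 and 1.00. Their 95% intervals were -0.99 to 0.72, -0.83 to 0.88 and -0.96 to 0.75, so these arrays leave room for a change of nearly 1 log2 unit either way. Over all 7 member probes the limma adjusted p lay between 0.800 and 0.904 for ptaquiloside minus control, and between 0.826 and 0.985 for ptaquiloside plus selenium minus ptaquiloside. In ptaquiloside plus selenium minus control all 7 differences were negative, from -0.40 to -0.11, where 12006 of 25046 probes were negative. Nothing is read from that count, since this difference is the sum of selenium minus control and ptaquiloside plus selenium minus selenium.

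The 3 comparisons used in picking the genes also held 0 called probes (0%) in the whole table, with 272, 158 and 340 probes at an unadjusted p under 0.05 in selenium minus control, ptaquiloside plus selenium minus selenium, and the interaction. Of the 7 member probes, 5 were lower and 2 higher in selenium than in control, and 4 of the 7 are probes of Igf1r. The median was -0.34, beside -0.0021 over all tested probes, and nothing is read from that gap, since the genes were picked on this comparison.

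**Figure D4:**
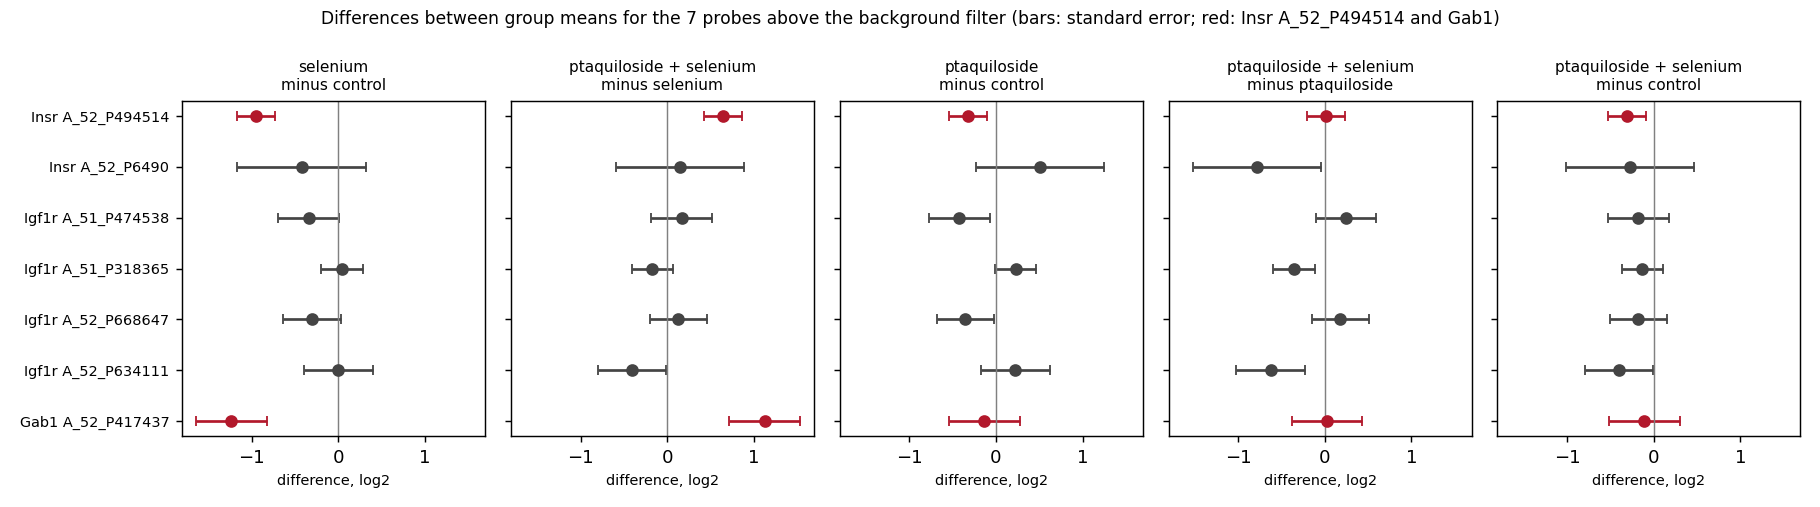
Differences between group means on the log2 scale for the 7 tested member probes in 5 comparisons, with bars of 1 standard error and Insr A_52_P494514 and Gab1 in red. These 2 probes lie farthest from 0 in selenium minus control, at -0.95 and -1.24, and in ptaquiloside plus selenium minus selenium, at 0.65 and 1.13, which are comparisons they were picked on, and at most 0.32 from 0 in the other comparisons.

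Insr A_52_P494514 and Gab1 had a Pearson r of 0.47 and a Spearman rho of 0.28 over the 20 arrays, which share the 4 group means. Among 17341 genes, those with the highest Spearman correlation to Insr A_52_P494514 were 9530083O12Rik (rho 0.86, r 0.75), AK031552 (0.78, 0.68), 4833419E13Rik (0.77, 0.81), AK141415 (0.77, 0.65) and AK041471 (0.76, 0.78). All 5 carry clone or RIKEN cDNA names. For Gab1 they included Etf1, a translation release factor (rho 0.79, r 0.09), Cd80, a costimulatory ligand (0.78, 0.72), Dbf4, a regulator of replication origin firing (0.76, 0.24), and P2rx7, an ATP-gated channel (0.74, 0.75). These are descriptions over 20 arrays and say nothing of shared control.

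The rest of the pathway was described with a list of 91 genes in 10 roles, of which 83 had a tested probe. Limma called 0 of the 83 in any of the 6 comparisons. In selenium minus control 47 were higher and 36 lower with a median of 0.02, beside 9213 higher and 8268 lower of 17481 genes with a median of 0.01. In ptaquiloside plus selenium minus selenium 34 were higher and 49 lower with a median of -0.04, beside 8759 and 8722 with a median of 0.00059. In selenium minus control the genes of the list ran from -0.42 to 0.63.

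Among the ligands, Igf1 gave -0.31 ± 0.48 in selenium minus control and 0.35 ± 0.48 in ptaquiloside plus selenium minus selenium (SE here and below). These standard errors also share the spread of all 4 groups, with ptaquiloside mouse 4 included. Ins2, an insulin gene, gave 0.22 ± 0.80 and -0.01 ± 0.80, and Igf2 gave 0.02 ± 0.43 and 0.27 ± 0.43, and the spots of these 3 genes were well above background on 5 to 8 of 20 arrays. Of other receptors and binding proteins, Igfbp2, which binds insulin-like growth factors, gave -0.38 ± 0.58 in selenium minus control, and the receptor relative Insrr gave 0.22 ± 0.50. Igfbp6 gave -0.53 ± 0.42 and Igfbp4 0.25 ± 0.38 in ptaquiloside plus selenium minus selenium. Each of these differences was near or below its standard error.

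Of 16 tested adaptors, 8 were higher and 8 lower in selenium than in control. The ubiquitin ligase Cbl gave -0.42 ± 0.37, Dok1 0.28 ± 0.21 and Irs4, a further Irs relative, 0.27 ± 0.41. In ptaquiloside plus selenium minus selenium 4 were higher and 12 lower. Gab2, the Gab family member known for its place in haematopoietic cells, gave -0.35 ± 0.33, Cbl 0.32 ± 0.37 and Cblb, a ligase known as a brake on NK cells, 0.31 ± 0.37. Gab2 therefore did not share the direction of Gab1 in that comparison, though its difference was close to its standard error.

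Among PI3-kinase subunits, the regulatory subunit Pik3r3 gave 0.55 ± 0.37 in selenium minus control and -0.61 ± 0.37 in ptaquiloside plus selenium minus selenium, opposite in sign to Insr and Gab1, with spots well above background on 6 of 20 arrays. The catalytic subunit Pik3cg gave -0.31 ± 0.22 and 0.16 ± 0.22, and the regulatory subunit Pik3r2 gave 0.26 ± 0.36 and -0.21 ± 0.36. Of the kinases downstream, Pdpk1, which activates Akt, gave 0.90 ± 0.97 in ptaquiloside plus selenium minus selenium, the largest difference of the list in that comparison. Rptor of mTOR complex 1 gave 0.21 ± 0.40 in selenium minus control and -0.32 ± 0.40 in ptaquiloside plus selenium minus selenium, while Rictor of mTOR complex 2 gave -0.20 ± 0.42 and 0.25 ± 0.42, and Gsk3a gave 0.17 ± 0.21 in selenium minus control.

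On the Ras branch, Map2k1 gave -0.28 ± 0.44, Mapk3 0.23 ± 0.18 and Hras 0.18 ± 0.30 in selenium minus control. Ptpn11, the phosphatase that Gab1 recruits, gave -0.27 ± 0.22 in ptaquiloside plus selenium minus selenium. Among inhibitors, Trib3, a pseudokinase that binds Akt, gave 0.63 ± 0.44 in selenium minus control and -0.50 ± 0.44 in ptaquiloside plus selenium minus selenium. Socs1 gave 0.27 ± 0.28 and -0.28 ± 0.28. Tsc2, a brake on mTOR, gave -0.23 ± 0.24 in ptaquiloside plus selenium minus selenium.

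Of the transcription factors that Akt restrains, Foxo3 gave -0.32 ± 0.48 in selenium minus control and 0.29 ± 0.48 in ptaquiloside plus selenium minus selenium, and Foxo6 gave 0.27 ± 0.56 and 0.30 ± 0.56. In the same comparisons, the Foxo target Il7r gave -0.31 ± 0.24 and 0.07 ± 0.24, and the Foxo target Klf2 gave -0.03 ± 0.50 and 0.30 ± 0.50. The glucose transporters Slc2a1 and Slc2a3 gave -0.17 ± 0.25 and -0.14 ± 0.33 in selenium minus control, and 0.08 ± 0.25 and -0.21 ± 0.33 in ptaquiloside plus selenium minus selenium. Receptors that use Gab1 gave -0.33 ± 0.34 (Met), -0.22 ± 0.22 (Erbb3) and -0.18 ± 0.68 (Egfr) in selenium minus control, and -0.26 ± 0.76 (Kit), 0.16 ± 0.68 (Egfr) and 0.10 ± 0.34 (Met) in ptaquiloside plus selenium minus selenium. None of these genes passed the limma test.

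**Figure D5:**
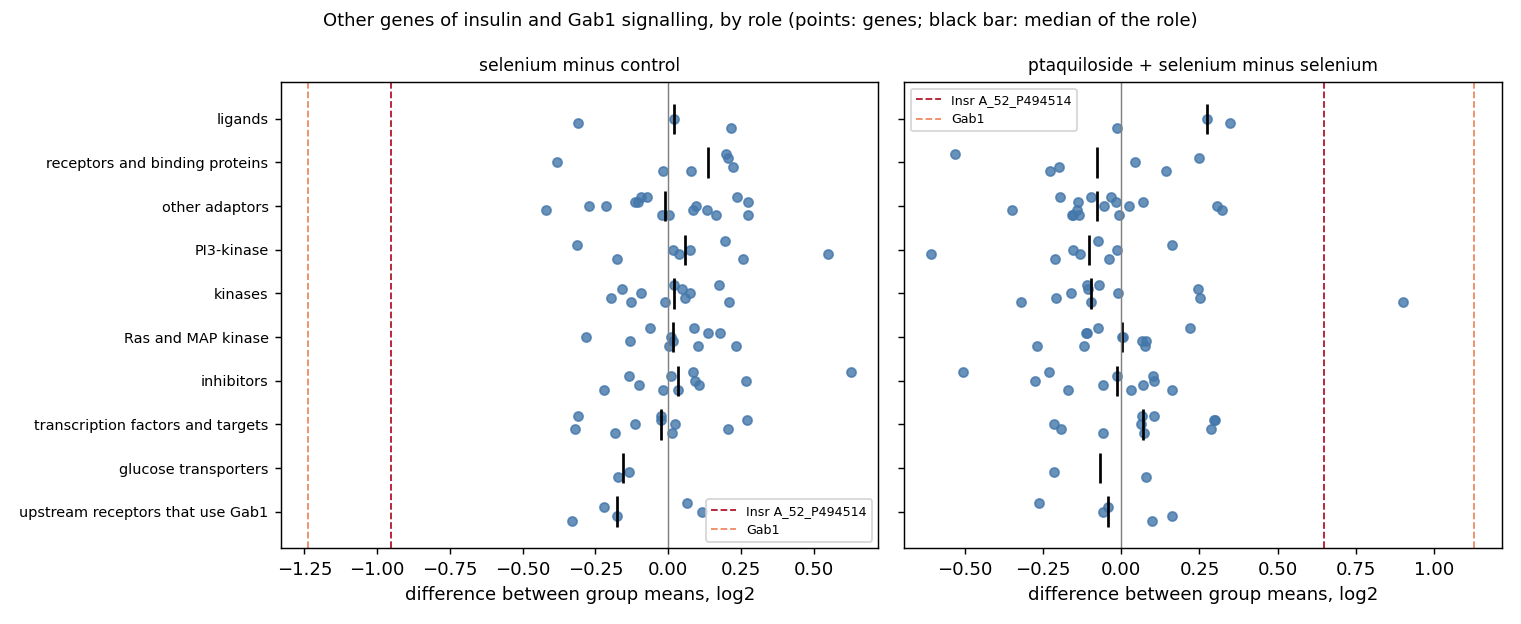
Differences between group means on the log2 scale for the 83 tested genes of the pathway list, 1 point per gene, by role, in selenium minus control and in ptaquiloside plus selenium minus selenium, with the median of each role as a black bar and the values of Insr A_52_P494514 and Gab1 as dashed lines. In selenium minus control all points lie between -0.42 and 0.63; the dashed lines are values on which Insr and Gab1 were picked, so nothing is read from their distance to the points.

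Limma called 0 of the 69 tested markers of NK cells and other spleen cells in any comparison, and the marker lists went in different directions. All 11 NK cell markers were well above background on 20 of 20 arrays, and their mean level lay between 3.64 and 5.71. The B cell marker Ms4a1 and the T cell marker Cd3d were also well above background on 20 of 20 arrays. In selenium minus control, 0 of 10 B cell markers were higher with a median of -1.03, 0 of 9 T cell markers with a median of -0.49, 1 of 9 macrophage and monocyte markers with a median of -0.41, and 4 of 8 dendritic cell markers with a median of -0.01. In the same comparison 11 of 11 NK cell markers were higher with a median of 0.27, 8 of 8 neutrophil markers with a median of 0.55, 7 of 7 platelet and megakaryocyte markers with a median of 0.24, and 5 of 7 erythroid markers with a median of 0.14. In ptaquiloside plus selenium minus selenium, 10 of 10 B cell markers were higher with a median of 0.92, 9 of 9 T cell markers with a median of 0.60, 7 of 9 macrophage and monocyte markers with a median of 0.06, and 4 of 8 dendritic cell markers with a median of -0.03. There 0 of 11 NK cell markers were higher with a median of -0.13, 2 of 8 neutrophil markers with a median of -0.09, 2 of 7 erythroid markers with a median of -0.22, and 0 of 7 platelet and megakaryocyte markers with a median of -0.45. The mean B cell marker level ran from -1.68 to 0.94 with both agents, -1.69 to -0.45 with selenium, -1.82 to 0.38 with ptaquiloside and -0.60 to 0.79 in controls. The mean T cell marker level ran from -1.34 to 0.34 with both agents, -1.57 to -1.09 with selenium, -1.49 to 0.17 with ptaquiloside and -1.12 to 0.05 in controls.

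Over the 20 arrays, Insr A_52_P494514 had a Pearson r of 0.63 with the mean T cell marker level, 0.57 with the mean B cell marker level and -0.57 with the mean NK cell marker level. For the other Insr probe, A_52_P6490, these were 0.31, -0.22 and -0.78. Without ptaquiloside mouse 4 they were 0.01, -0.24 and -0.49 for A_52_P6490, and 0.59, 0.62 and -0.58 for A_52_P494514. For Gab1 the values over the 20 arrays were 0.15, 0.16 and -0.17, and its highest was 0.55 with the macrophage and monocyte markers. These points share arrays and groups, and the part of other cells in the Insr and Gab1 differences was not tested.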

How the data were processed

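Cy3-labelled RNA of 20 mice was measured on 1-colour Agilent arrays, 1 array per mouse. The authors deposited scanner files made with Agilent Feature Extraction 9.5.3.1, per the submitters' processing notes; the intensity used is the processed signal, background-subtracted and detrended per the file headers. The authors' deposited table holds log2 values equal to the log2 processed signal plus 19.93, with control mouse 1 and ptaquiloside mouse 4 replaced by group means per the file headers; it served as an alternative.

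Here, control spots and outlier flags were left out, each array's 75th percentile was subtracted on the log2 scale, and spots of a probe were averaged. Probes with a spot well above background on 5 or more arrays were fitted with limma 3.58.1 in R 4.3.3, all 20 arrays and 1 mean per group, with Benjamini-Hochberg adjustment over 25046 probes at 0.05. Standard errors of every comparison come from 1 spread per probe shared by the 4 groups, with the array of ptaquiloside mouse 4 included. The fit was tested on simulated data with independent arrays of equal spread. That test did not cover slide or an array like that of ptaquiloside mouse 4. Gene names came from the files, and 25097 of 41174 probes were named through RefSeq accessions (GRCm38.p6, names only); a gene is represented by its brightest tested probe. Other genes named are, per pathway role, up to 3 with the largest difference in selenium minus control and in ptaquiloside plus selenium minus selenium, and the 5 most alike by Spearman correlation. A few genes that this rule names are not reported here. The members, pathway list and marker lists were chosen with earlier results of these data known. The submitters describe independent mice, and 5 arrays a group limit the precision. Replicate number marks the slide, per the file headers: same-numbered arrays deviated together in 24 of 30 pairs of groups and slides (correlation above 0.1), with a mean correlation of 0.348 against -0.084 for other pairs. Alternatives were a replicate block (with all arrays or without ptaquiloside mouse 4), normexp, median centring, quantile normalization and the deposited table. Further ones were other filters on dim probes, 1 probe per gene, and leaving out each array. Normexp with an offset of 1 was added after seeing the data.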

Additional observations from a re-analysis of the deposited data

Results flagged for a closer look

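In the ptaquiloside group, mouse 4 stood far from the other mice on 2 Irs1 probes. Its level was -3.30 on A_52_P175242, where the nearest mouse had -6.11, and -2.90 on A_52_P63931, where the nearest had -5.97. Both spots were not well above background, and this array has the lowest 75th percentile of all, 10.5 scanner units. Before scaling, its processed signals of 1.06 and 1.41 units lay within the ranges of the other ptaquiloside mice, 0.98 to 1.65 and 1.20 to 1.49. Of 40 combinations of probe and group examined, these 2 stood apart in this way, where chance gives about 1 in 20. Their cause was not tested.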

How the results depend on the processing

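In 30 alternatives, of which 1 (normexp with an offset of 1) was chosen after seeing the data, the count of called probes was 0 in each of the 6 comparisons except the interaction, where leaving out 1 array gave 0 to 1 called probes. The 1 probe, A_51_P516219 (AK036773, named after its values were seen), was called without mouse 4 given both agents (limma adjusted p = 0.0379, against 0.997 with all arrays). Unadjusted counts ranged from 87 to 1374 in selenium minus control and from 45 to 937 in ptaquiloside plus selenium minus selenium. In the interaction they ranged from 87 to 1092. Each was lowest with normexp and highest with the replicate block without ptaquiloside mouse 4. In ptaquiloside minus control they ranged from 61 to 1472, and in ptaquiloside plus selenium minus ptaquiloside from 182 to 1539. Both were highest without ptaquiloside mouse 2. In ptaquiloside plus selenium minus control they ranged from 24 to 362. The replicate block, which uses slide as a term, gave 0 called probes and left the balanced differences as they were, with a standard error of 0.23 for Insr A_52_P494514 and 0.36 for Gab1 in selenium minus control. In that comparison Insr A_52_P494514 was -1.09 to -0.86 and Gab1 -1.60 to -0.95 when 1 array was left out, and the deposited table gave -1.09 and -1.34. Quantile normalization gave interactions of 1.36 and 1.62, and for Insr A_52_P494514 a ptaquiloside minus control of -0.85; the cause was not tested. Members called in the other 3 comparisons numbered 0 in all 27 alternatives that kept every member, with a lowest adjusted p of 0.528. Signals of a few scanner units above background limit the Insr and Gab1 values.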
